A study of Mus musculus with 4 samples.

Results

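Mt1, Mt2 and Mt3 encode metallothioneins, and their rows were chosen by gene symbol from the counts of mouse testis described here, with values from these same libraries in view. They are 3 of the 28595 genes in the table. The sections, 10 µm thick, were profiled with photo-isolation chemistry, which uses ultraviolet light to free caged DNA ends, so that transcripts are recovered from the lit area only. There were 4 groups of 3 libraries each, 12 libraries in all: wild-type testis lit over the entire section, wild-type testis lit at Leydig cells only, and H3t-knockout testis treated in each of those ways. H3t is a testis histone H3 variant. Titles of the wild-type samples say young, and for the knockout no age is stated. The labels name no cell type in which H3t was deleted, nor do they tell whether a group's libraries are from separate animals. Any p-value below therefore measures only the spread between libraries.

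Metallothioneins are small, cysteine-rich proteins that bind zinc and copper and, on exposure, cadmium. Mt1 and Mt2 are made in many tissues and are induced together by zinc and other metals through the transcription factor MTF1, which binds metal response elements in their promoters, and also by glucocorticoids, oxidative stress and signals of the IL-6 family through STAT3. Mt3 is best known from the brain and Mt4 from stratified epithelium. In the testis, Sertoli cells and germ cells have been described as sources of metallothionein, and zinc is needed for sperm to form.

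The genes lie next to each other on the plus strand of chromosome 8 (GRCm38, GENCODE annotation), each with 3 exons. Mt3 (ENSMUSG00000031760) spans chr8:94152607-94154146, Mt2 (ENSMUSG00000031762) chr8:94172664-94173568 and Mt1 (ENSMUSG00000031765) chr8:94179082-94180327. Mt2 and Mt1 are 5513 bases apart, and Mt3 and Mt2 are 18517 bases apart. Mt4, upstream of Mt3, was not analysed here. Gm45774, an antisense gene on the minus strand at chr8:94170748-94173412, overlaps Mt2. It had 5 counts over all libraries. No strand setting of the counting is stated, and reads of Mt2 and of its antisense partner cannot be told apart.

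The promoters are shown because the known inducers of Mt1 and Mt2 act through elements there. Each window holds the 250 bases before the RefSeq start (GRCm38.p6, plus strand, 5′ to 3′), and capitals mark the core letters of a metal response element, TGCACNC or TGCGCNC, on either strand. The windows are chr8:94178839-94179088 for Mt1, chr8:94172368-94172617 for Mt2 and chr8:94152357-94152606 for Mt3.
Mt1: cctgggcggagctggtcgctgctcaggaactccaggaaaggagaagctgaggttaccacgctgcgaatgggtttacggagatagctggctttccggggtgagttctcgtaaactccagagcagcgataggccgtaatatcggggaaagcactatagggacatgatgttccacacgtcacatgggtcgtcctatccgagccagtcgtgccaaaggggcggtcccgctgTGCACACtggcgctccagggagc
Mt2: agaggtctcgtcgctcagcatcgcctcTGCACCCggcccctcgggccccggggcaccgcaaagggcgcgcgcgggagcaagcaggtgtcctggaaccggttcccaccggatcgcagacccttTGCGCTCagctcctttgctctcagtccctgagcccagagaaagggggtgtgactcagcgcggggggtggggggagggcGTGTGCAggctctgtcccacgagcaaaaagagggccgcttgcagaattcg
Mt3: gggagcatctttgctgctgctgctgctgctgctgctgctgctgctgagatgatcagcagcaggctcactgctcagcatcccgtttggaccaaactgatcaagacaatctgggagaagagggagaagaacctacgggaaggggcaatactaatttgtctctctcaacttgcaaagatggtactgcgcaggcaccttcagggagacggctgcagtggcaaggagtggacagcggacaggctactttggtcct

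Mt1 held 1 match, TGCACAC on the plus strand, beginning 23 bases before the start. Mt2 held 3, which were TGCACCC at 223 and TGCGCTC at 128 bases on the plus strand, and a minus-strand match, printed as GTGTGCA, at 50 bases. Mt3 held 0. Of the 32851 promoter windows in the table, 21.4% held at least 1 match and 1.26% held at least 3. The looser letters TGCNCNC, which include every match above, occurred once in Mt1, 5 times in Mt2 and once in Mt3, and at least 1 occurred in 44.4% of windows. Mt2 also held TGACTCAGC, a match to the antioxidant response element core TGACNNNGC, 79 bases before its start, a motif present in 10.2% of windows. Mt1 held 2 matches to the GC box GGGCGG, at 247 and 37 bases, and 16.7% of windows held 2 or more. TGTTCT, part of a glucocorticoid receptor element, and the E-box CACGTG were in none of the 3 windows, and were in 16.1% and 6.02% of all windows. The count depends on the window. Over the whole 300 bases given for each gene, which run past the RefSeq start, Mt1 held 3 metal response element cores, Mt2 4 and Mt3 1, and 25.7% of all such windows held at least 1. The GENCODE start of Mt2 lies 46 bases downstream of the RefSeq start, while those of Mt1 and Mt3 are 7 bases upstream and at the same base. The other motifs were counted only in the 250 bases before the start, and nothing farther from the starts was searched. The windows thus do not compare all the elements of Mt1 with all those of Mt2. These matches are letters in a window and not measured binding sites.

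Section libraries held 247539 to 566527 counts each and Leydig-targeted libraries 5947 to 54882, so the members were counted far less deeply in the latter. Levels are given in CPM, counts scaled to the total of the library. The wild-type Leydig-targeted library 3 was the shallowest and had the largest scaling factor (2.28, against 0.567 to 1.39 in the other libraries). The fitted differences of Mt1 and Mt2, and some of their levels, are therefore given with and without it. No row carries the symbol H3t, so the deletion was not checked in these counts. The 10 Leydig cell markers in the table, steroidogenic genes such as Star and Cyp17a1, summed to 0.520% ± 0.180 of counts in wild-type sections and 3.88% ± 0.393 in knockout sections, and to 2.20% ± 0.838 and 6.80% ± 0.644 in the matching Leydig-targeted groups (SD, n = 3 each). The 8 spermatid markers summed to 3.71% ± 1.14 in wild-type sections and 0.0338% ± 0.0348 in knockout sections, and still reached 1.61% ± 0.655 in wild-type Leydig-targeted libraries. Transcripts of germ cells were thus counted there too. In sections such as these, fewer cells of a type and less RNA per cell cannot be told apart.

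Mt1 was among the most counted genes of the testis sections. Its counts were 2055, 1707 and 1083 in wild-type sections 1 to 3, which are 3627, 3266 and 4375 CPM. In knockout sections they were 1992, 1059 and 1455, or 4187, 2700 and 4522 CPM. By counts it ranked between 9th and 22nd of all genes in the 6 section libraries. The section groups overlapped, with the lowest and the highest of the 6 values both in knockout libraries.

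In wild-type Leydig-targeted libraries Mt1 had 33, 13 and 5 counts, or 601.3, 484.1 and 840.8 CPM. In knockout Leydig-targeted libraries it had 80, 73 and 35 counts, or 1509, 1839 and 2301 CPM. All 3 knockout values were above all 3 wild-type values, and both groups were below every section library. The 5 counts of the shallowest library leave a 95% counting interval from 273 to 1962 CPM. Its upper end lies above the knockout values of 1509 and 1839 CPM and below that of 2301 CPM. Intervals here are exact Poisson or binomial ones and cover counting error only. Folds given below as at least put a fixed floor of 3 counts in place of a group's 0. They take the other group's count without an interval, so they are not confidence limits. The group means were 3756 ± 566 CPM in wild-type sections, 3803 ± 970 in knockout sections, 642 ± 182 in wild-type Leydig-targeted libraries and 1883 ± 398 in knockout Leydig-targeted libraries (SD, n = 3 each). In order of level, both section groups came highest and did not differ beyond their spread, the knockout Leydig-targeted group followed, and the wild-type Leydig-targeted group was lowest.

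Mt2 had 404, 256 and 175 counts in wild-type sections, or 713.1, 489.8 and 707 CPM. In knockout sections it had 271, 270 and 207 counts, or 569.6, 688.5 and 643.3 CPM, all inside the wild-type range. In wild-type Leydig-targeted libraries it had 18, 10 and 1 counts, or 328, 372.4 and 168.2 CPM. In knockout Leydig-targeted libraries it had 10, 10 and 12 counts, or 188.7, 252 and 789.1 CPM. Knockout library 3 alone stood above all wild-type Leydig-targeted values, and the groups overlapped. The means were 637 ± 127, 634 ± 60.0, 290 ± 107 and 410 ± 330 CPM in the same order of groups (SD, n = 3 each). Without library 3 of each Leydig-targeted group, the Leydig-targeted means were 350 CPM in wild type and 220.3 CPM in knockout, the opposite order, and for Mt1 they were 543 and 1674 CPM. Both section groups again came highest, and neither their values nor those of the Leydig-targeted groups were separated by genotype.

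Mt3, the member best known from neurons, was hardly counted. It had 1 count in knockout section 2 and 1 count in knockout Leydig-targeted library 2, or 2.55 and 25.2 CPM, and 0 in the other 10 libraries. It did not pass the filter on low counts, and no fold is given. Mt1 and Mt2 passed, each with counts in all 12 libraries.

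**Figure D1:**
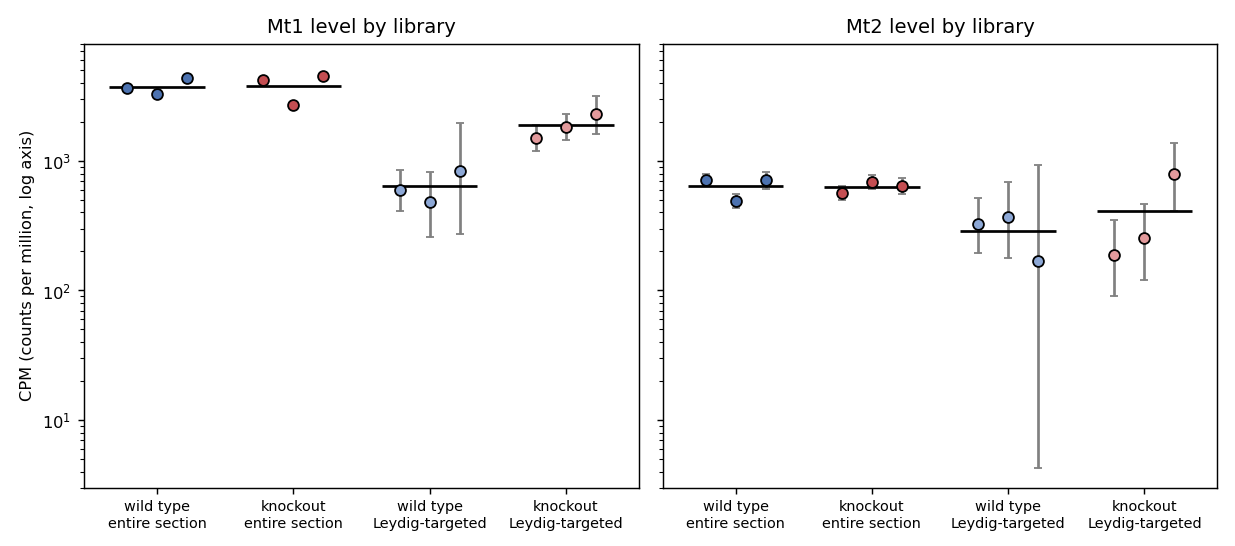
Mt1 (left) and Mt2 (right) in CPM on a log axis, 1 point per library in replicate order, with exact 95% Poisson counting intervals as grey bars and the group mean as a black line. All 3 knockout Leydig-targeted Mt1 values lie above the wild-type ones, while Mt2 values overlap between genotypes, and Mt3, with 2 counts in all, is not drawn.

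Between genotypes, in entire sections, neither member differed by more than the spread of its libraries. Mean CPM in knockout over wild type was 1.01 for Mt1 and 0.996 for Mt2. With TMM scaling, which corrects libraries for differences in makeup, the fitted log2 difference was -0.56 ± 0.45 (SE) for Mt1 and -0.58 ± 0.45 for Mt2, in a fit where the median of all 5182 genes tested was -0.35. Without wild-type Leydig-targeted library 3, which is in neither group, they were -0.20 and -0.24. With library size alone the same differences were 0.02 and -0.0048, so the direction for Mt1 depends on the scaling. In this comparison 22.6% of all tested genes were called higher and 39.1% lower. Of the calls, 36.6% were higher with TMM and 52.2% with library size alone. The median of all tested genes was 0.23 on the latter scale. Spermatid markers differed as given above between these groups, Leydig and Sertoli markers were higher in knockout, and the part of cell makeup in the members' levels was not tested.

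At Leydig cells, Mt1 was 2.93-fold higher in knockout than in wild-type libraries by mean CPM, with no overlap, and Mt2 was 1.42-fold higher with overlap. Of all tested genes, 13.5% were higher in all 3 knockout libraries with no overlap, and nothing is read from Mt1 being among them, since it was chosen with these values known. The fitted log2 difference was 1.497 ± 0.53 (SE) for Mt1 and -0.14 ± 0.64 for Mt2, against a median of -0.28 over all tested genes. Without wild-type Leydig-targeted library 3 the Mt1 difference was 1.09 and the Mt2 difference -0.70. Mt2 changed direction with single libraries: its log2 difference was -1.09 without knockout Leydig-targeted library 3 and 0.23 without knockout Leydig-targeted library 1. Leydig markers also differed between these groups, from 1.24% to 2.79% of counts in wild-type and 6.16% to 7.44% in knockout libraries, as did Sertoli markers, from 0.286% to 0.555% and from 0.664% to 1.11%. Mean spermatid marker shares were 1.61% in wild type and 0.00734% in knockout, spermatocyte marker shares 0.448% and 0.0140%, and macrophage marker shares 0.0314% and 0.127%. In knockout Tnp1, Tnp2, Tssk1 and Odf1 of the 8 spermatid markers, and 6 of the 8 spermatocyte markers, were at 0. The part of these cell types in the Mt1 difference was not tested.

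Between the lit areas, both members were lower at Leydig cells than in entire sections in wild-type testis. The section mean was 5.85-fold the Leydig-targeted mean for Mt1 and 2.20-fold for Mt2, with no overlap for either. In knockout testis the section mean was 2.02-fold higher for Mt1, with no overlap, and 1.55-fold higher for Mt2, with overlap. Genes that were lower in all 3 Leydig-targeted libraries with no overlap made up 21.4% of those tested in wild type and 21.8% in knockout, and nothing is read from the members' place among them. Of the calls, 20.6% were higher in wild type with TMM and 57.0% with library size alone, and 35.1% and 52.6% in knockout. The fitted log2 differences, Leydig-targeted minus section, were -3.35 ± 0.53 (SE) for Mt1 and -1.57 ± 0.55 for Mt2 in wild type, where the median of all tested genes was -0.67. Without wild-type Leydig-targeted library 3 they were -2.91 and -1.01. In knockout they were -1.29 ± 0.47 for Mt1 and -1.13 ± 0.54 for Mt2, with a median of -0.42 over all genes, and Mt2 reached -1.96 without knockout Leydig-targeted library 3. Without wild-type Leydig-targeted library 3 the knockout differences were -1.62 for Mt1 and -1.47 for Mt2.

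Mt1 and Mt2 are usually induced together, so their balance was followed as Mt2's share of the summed counts of both genes. Counts were not divided by gene length, so this share compares libraries and not the levels of the 2 genes. In wild-type sections Mt2 made up 16.4%, 13.04% and 13.9% of the sum, and in knockout sections 11.98%, 20.3% and 12.5%. Knockout section 2 was the highest of the 6, having both the lowest Mt1 and the highest Mt2 level of its group. In wild-type Leydig-targeted libraries the share was 35.3%, 43.5% and 16.7%, and in knockout ones 11.1%, 12.1% and 25.5%. The means were 14.5% ± 1.76, 14.9% ± 4.68, 31.8% ± 13.7 and 16.2% ± 8.07 (SD, n = 3 each), so the Leydig-targeted groups overlapped. Without library 3 of each, the Leydig-targeted means were 39.4% and 11.6%. Pooled over libraries, 29 of 80 counts in wild-type Leydig-targeted libraries were Mt2, or 36.2% with an exact binomial 95% interval from 25.8% to 47.8%, and 32 of 220 in the knockout ones, or 14.5% with an interval from 10.2% to 19.9%. The summed level of both genes was 932 ± 76.2 CPM in wild-type and 2293 ± 718 CPM in knockout Leydig-targeted libraries.

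**Figure D2:**
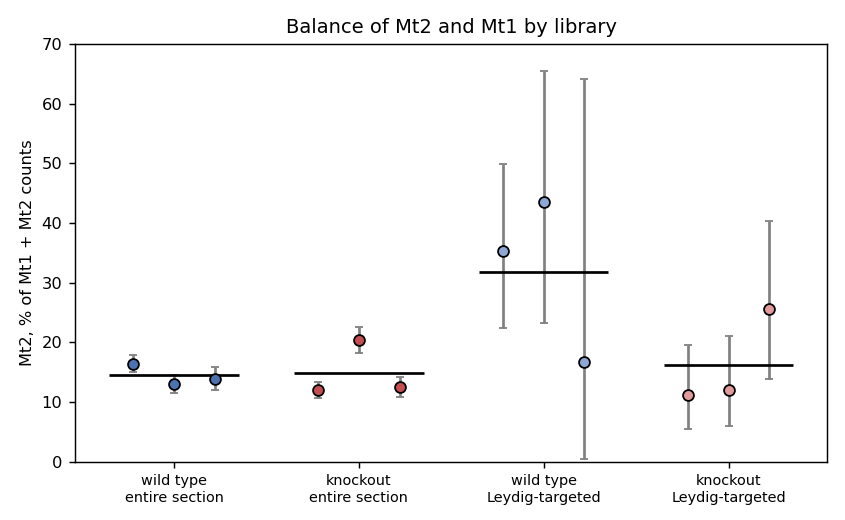
Mt2 as a percent of Mt1 plus Mt2 counts, 1 point per library in replicate order, with exact 95% binomial counting intervals as grey bars and the group mean as a black line. Wild-type Leydig-targeted libraries 1 and 2 are the highest at 35.3% and 43.5%, and library 3, with 6 counts in all, has an interval from 0.421% to 64.1%.

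Set against cell markers rather than library totals, the order of the groups changed. For each 100 Leydig marker counts there were 77.7 ± 24.2 Mt1 counts in wild-type sections, 9.68 ± 1.60 in knockout sections, 3.24 ± 1.49 in wild-type Leydig-targeted libraries and 2.75 ± 0.322 in knockout ones (SD, n = 3 each). On this scale the Leydig-targeted genotypes overlapped, and the wild-type sections stood above all other libraries. For each 100 counts of the 15 Sertoli cell markers, genes such as Sox9 and Clu of the cells that nurse germ cells inside the tubule, Mt1 had 67.1 ± 18.4, 19.9 ± 4.72, 16.8 ± 11.0 and 23.1 ± 10.7 counts in the same order. Outside the wild-type sections, these Sertoli-scaled values overlapped. Without wild-type Leydig-targeted library 3, where 5 Mt1 counts stood over 17 Sertoli marker counts, the wild-type Leydig-targeted mean was 10.5.

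Mt2 followed with 12.8 ± 2.50, 1.65 ± 0.312, 1.56 ± 1.02 and 0.579 ± 0.418 counts per 100 Leydig marker counts, and 11.1 ± 1.64, 3.33 ± 0.334, 6.45 ± 0.488 and 5.48 ± 5.57 per 100 Sertoli marker counts. In the Leydig-targeted libraries these ratios rest on few counts. Wild-type library 3 held 1 Mt2 and 17 Sertoli marker counts. Without knockout Leydig-targeted library 3, the knockout Mt2 means were 0.339 per 100 Leydig marker counts and 2.28 per 100 Sertoli marker counts. Macrophage markers summed to between 0.0172% and 0.215% of counts in all libraries, and endothelial markers to at most 0.0197%. In wild-type Leydig-targeted libraries Adgre1, C1qa, Pecam1 and Ly6c1 were at 0, and in knockout ones Adgre1, Pecam1, Vwf, Kdr and Tek were. These are ratios of counts, and which cells made the metallothionein transcripts was not tested.

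**Figure D3:**
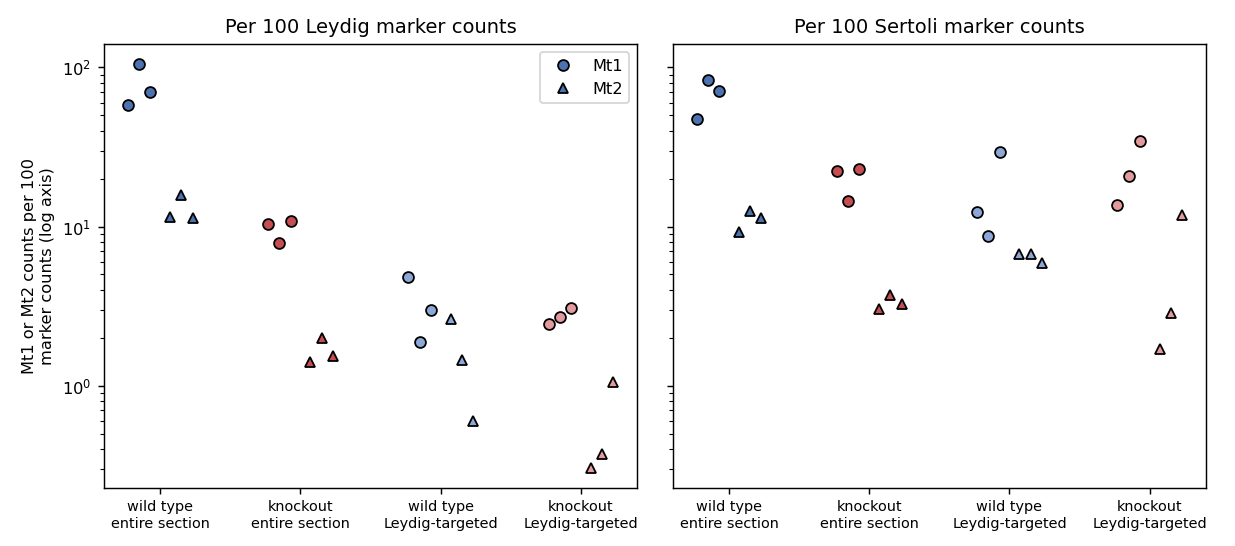
Mt1 (circles) and Mt2 (triangles) counts per 100 counts of Leydig markers (left) and Sertoli markers (right), 1 point per library, on a log axis. Wild-type sections are the highest for Mt1 on both scales, at means of 77.7 and 67.1, and Mt1 in the other groups overlaps on the Sertoli scale.

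The genes that move or sense metals, and those of the pathways that induce Mt1 and Mt2, were followed in 6 lists with 70 genes, of which 33 passed the filter. The lists were chosen with earlier results of these data known, so nothing is read from their counts or medians beside those of all genes. Counts were tested with edgeR's quasi-likelihood test, and a gene was called at a Benjamini-Hochberg adjusted p under 0.05 over all tested genes. In sections 18 of the 33 were higher and 3 lower in knockout, set against 22.6% and 39.1% of all tested genes, and their median log2 difference was 1.11 against -0.35 over all genes. Serpina3n, Atp7a, Atox1, Slc31a1, Slc7a11 and Sgk1 reached the filter's 66.13 CPM in knockout libraries only, and Slc30a3 in wild-type ones only. The filter thus favoured the direction of such genes. Genes below the filter went both ways: in sections Slc39a4 had 68 wild-type and 4 knockout counts, and Cebpd 10 and 51. A fit of the 6 section libraries with the replicate number as a block, with the filter reapplied, called 34 list genes. More list genes than the 33 above passed that filter, and how many is not given here, so the counts are not compared. At Leydig cells 11 were higher and 4 lower, where 7.55% and 20.9% of all tested genes were called, with medians of 1.12 and -0.28. That count was 3 without wild-type Leydig-targeted library 1, when only Slc30a1, Slc30a3 and Lifr were still called, 8 without knockout Leydig-targeted library 1 and 2 in a fit of the 6 Leydig-targeted libraries alone. The higher calls were 6 with library totals over filtered genes and 7 without wild-type section 1 or wild-type Leydig-targeted library 3, and the lower calls were 2 without a filter or without knockout Leydig-targeted library 2. For 0 list genes did the genotype difference itself differ between the lit areas by edgeR, with 4 at an unadjusted p under 0.05, and DESeq2 called 1. Over all genes that test called 0.193% higher and 0.135% lower. Spermatid, Leydig and Sertoli markers differed between genotypes as given above, and the part of cell makeup in the calls of any list was not tested.

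Mtf1, which encodes the zinc sensor that switches on metallothionein genes, was called lower in knockout sections. Wild-type sections had 64, 64 and 46 counts of it and knockout sections 16, 16 and 17, with no overlap in CPM, and its log2 difference was -2.30 ± 0.45 (SE, edgeR quasi-likelihood adjusted p = 1.39e-06). At Leydig cells the wild type had 11, 2 and 0 counts and the knockout 0, 0 and 2, and it was called lower (adjusted p = 0.024). The ratio of its summed shares was 7.999-fold lower, with a counting interval from 1.81 to 73.0, and rests on the 11 counts of wild-type library 1. Mean levels were 91.6 CPM in wild type and 43.8 CPM in knockout, and the 131.5 CPM of knockout library 3 lay above wild-type libraries 2 and 3. The call was lost without a filter (adjusted p = 0.30) and without wild-type Leydig-targeted library 1 or knockout Leydig-targeted library 1 or 2 (0.13 to 0.49). In those knockout libraries Mt1 was at 1509 to 2301 CPM.

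No tested zinc transporter was called higher in knockout. In sections 0 of 9 tested were called higher and 2 lower, with a list median of -0.57. Slc30a3, a transporter that loads zinc into vesicles, went from 114, 111 and 35 counts in wild type to 2, 2 and 1 in knockout, a log2 difference of -5.88 ± 0.61 (edgeR adjusted p = 1.49e-20). Slc30a4, another vesicle transporter, fell by 1.17 on the log2 scale (SE 0.46, adjusted p = 0.020). That call was lost with library size alone (edgeR adjusted p = 0.25), without a filter (0.20), with totals over filtered genes (0.059), in the 6 sections alone (0.0501), and without any of 6 single libraries (0.072 to 0.21): wild-type sections 1 and 2, knockout sections 1 and 3, and wild-type Leydig-targeted libraries 1 and 3. At Leydig cells 0 were higher and 3 lower, with a list median of -1.40. Slc30a1, the exporter of the plasma membrane and itself an MTF1 target, had 4, 8 and 1 counts in wild type and 0 in all 3 knockout libraries, at least 5.33-fold lower when 3 counts over the whole group are taken as the floor (edgeR adjusted p = 0.00097). In sections its counts were 45, 30 and 17 (wild type) against 45, 32 and 24 (knockout), a log2 difference of -0.28 ± 0.44. Slc30a3 was also at 0 in all knockout Leydig-targeted libraries, at least 5.33-fold lower, and Slc39a6, an importer, fell by 2.18 on the log2 scale (SE 0.84, adjusted p = 0.036), a call lost without a filter (adjusted p = 0.46) and without wild-type section 2, wild-type Leydig-targeted library 1 or knockout Leydig-targeted library 1 or 2 (0.052 to 0.33). Of the 5 genes in the list of MTF1 and its targets, only Mtf1 and Slc30a1 passed the filter. Mtf1 was called lower in both genotype comparisons and Slc30a1 at Leydig cells, for list medians of -1.29 and -5.47, the latter resting on the 0 counts of Slc30a1.

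Most tested copper-handling genes rose in knockout sections. Of the 8 tested, 6 were higher and 0 lower in knockout sections, with a list median of 1.24, and 4 were higher and 0 lower at Leydig cells, with a list median of 1.78. Cp, which encodes the copper carrier ceruloplasmin, rose in sections by 1.97 ± 0.50 on the log2 scale (edgeR adjusted p = 0.00024), from 10, 8 and 6 counts to 50, 35 and 43. Slc31a2, a copper transporter of internal membranes, rose by 1.69 ± 0.46 in sections (adjusted p = 0.00067) and by 2.28 ± 0.80 at Leydig cells (adjusted p = 0.021). With library totals over filtered genes the Leydig calls of Slc31a2 (adjusted p = 0.076), Slc31a1 (0.064) and Atp7a (0.070) were lost, and that of Atp7a also without a filter (0.074) and by DESeq2 (0.063). Each of these 3 calls was also lost without any 1 of 5 single libraries. The edgeR adjusted p was then 0.057 to 0.16 for Slc31a2, 0.051 to 0.30 for Slc31a1 and 0.064 to 0.25 for Atp7a. Slc31a1, the main copper importer, rose by 1.496 ± 0.500 in sections, and at Leydig cells had 1 count in wild type and 17 in knockout, a ratio of 13.8 with a counting interval from 2.17 to 577. Atp7a, a copper exporter, rose by 1.37 ± 0.48 in sections (adjusted p = 0.0089). The copper chaperone Atox1 had 0 counts in wild-type Leydig-targeted libraries and 14 in knockout ones, at least 3.79-fold higher, and Atp7a had 0 and 9, at least 2.44-fold higher. Sod1, the copper and zinc superoxide dismutase, rose in sections by 1.11 ± 0.46 (adjusted p = 0.026), a call lost without wild-type section 3 or any 1 knockout section (0.051 to 0.11).

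Genes that respond to glucocorticoids, hormones that also induce Mt1 and Mt2, were higher for 4 of 5 tested in sections (list median 1.58) and for 2 of 5 at Leydig cells (list median 2.33), with 0 lower in either. Fkbp5, a chaperone of the steroid receptor, rose by 1.80 ± 0.47 on the log2 scale in sections (edgeR adjusted p = 0.00034) and by 2.43 ± 0.80 at Leydig cells (adjusted p = 0.013, and 0.053 with totals over filtered genes). Sgk1, a kinase, rose by 1.72 ± 0.44 in sections, and Ddit4, an inhibitor of mTOR signalling, by 1.58 ± 0.51 in sections and 2.33 ± 0.84 at Leydig cells. The Ddit4 call was lost in sections without wild-type section 3 (edgeR adjusted p = 0.052) and at Leydig cells with totals over filtered genes (0.085). At Leydig cells the Ddit4 call was also lost without any 1 of 4 single libraries (0.060 to 0.36). That of Fkbp5 was lost there without wild-type Leydig-targeted library 1 or 3 (0.054 to 0.22). Nr3c1, the receptor itself, rose by 1.53 ± 0.57 in sections (adjusted p = 0.013, and 0.074 without knockout section 2), and had a log2 difference of -0.78 ± 0.996 at Leydig cells, where it was not called.

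In the list for NRF2, the oxidative stress factor, and glutathione synthesis, 2 of 4 tested were higher in sections (list median 0.82) and 1 of 4 at Leydig cells (list median 1.69), with 0 lower. Nfe2l2, the gene of NRF2, went from 29, 17 and 5 counts in wild-type sections to 112, 116 and 59 in knockout ones, a rise of 2.12 ± 0.46 on the log2 scale (edgeR adjusted p = 1.46e-05). At Leydig cells its difference was 0.84 ± 0.87 and it was not called. Slc7a11, the cystine importer that feeds glutathione synthesis, rose by 1.30 ± 0.57 in sections (adjusted p = 0.039), a call lost by DESeq2 (0.054) and without wild-type section 1 or 2 or knockout section 2 or 3 (0.067 to 0.11). At Leydig cells Slc7a11 had 0 counts in wild type and 15 in knockout, at least 4.06-fold higher.

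All 6 tested genes of the IL-6 family and STAT3 list were higher in knockout sections, with a list median of 2.24, and 4 were higher at Leydig cells, with a list median of 2.14. Stat3 rose by 1.49 ± 0.44 on the log2 scale in sections (edgeR adjusted p = 0.0017), and was not called at Leydig cells, where its difference was -0.16 ± 1.17. Lrg1, a secreted acute phase protein, went from 18, 7 and 6 counts in wild-type sections to 198, 116 and 240 in knockout ones, a rise of 3.82 ± 0.53 (adjusted p = 2.57e-12). It rose by 2.51 ± 0.75 at Leydig cells (adjusted p = 0.0055). The Leydig call was lost without wild-type Leydig-targeted library 1 or knockout Leydig-targeted library 3 (0.057 to 0.060). Serpina3n, a protease inhibitor of the same response, had 1 count in all wild-type sections and 116 in knockout ones, a ratio of 130 with a counting interval from 22.9 to 5192, and at Leydig cells 0 and 18, at least 4.88-fold higher. Lcn2, the iron-binding lipocalin, rose by 2.62 ± 0.46 in sections and by 1.77 ± 0.45 at Leydig cells. Lifr, the receptor of leukaemia inhibitory factor, rose by 1.86 ± 0.48 in sections and by 3.40 ± 0.73 at Leydig cells. Il6st, the shared receptor subunit, was called in sections only, with a rise of 1.60 ± 0.49 against a difference of 1.12 ± 0.83 at Leydig cells. Leydig, Sertoli and macrophage marker sums were also higher in knockout than in wild-type sections, the last at 0.173% ± 0.0445 against 0.0323% ± 0.0135. At Leydig cells macrophage markers summed to 0.127% ± 0.0588 in knockout and 0.0314% ± 0.00468 in wild type, with Adgre1 at 0 in both. Their part in these calls was not tested.

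**Figure D4:**
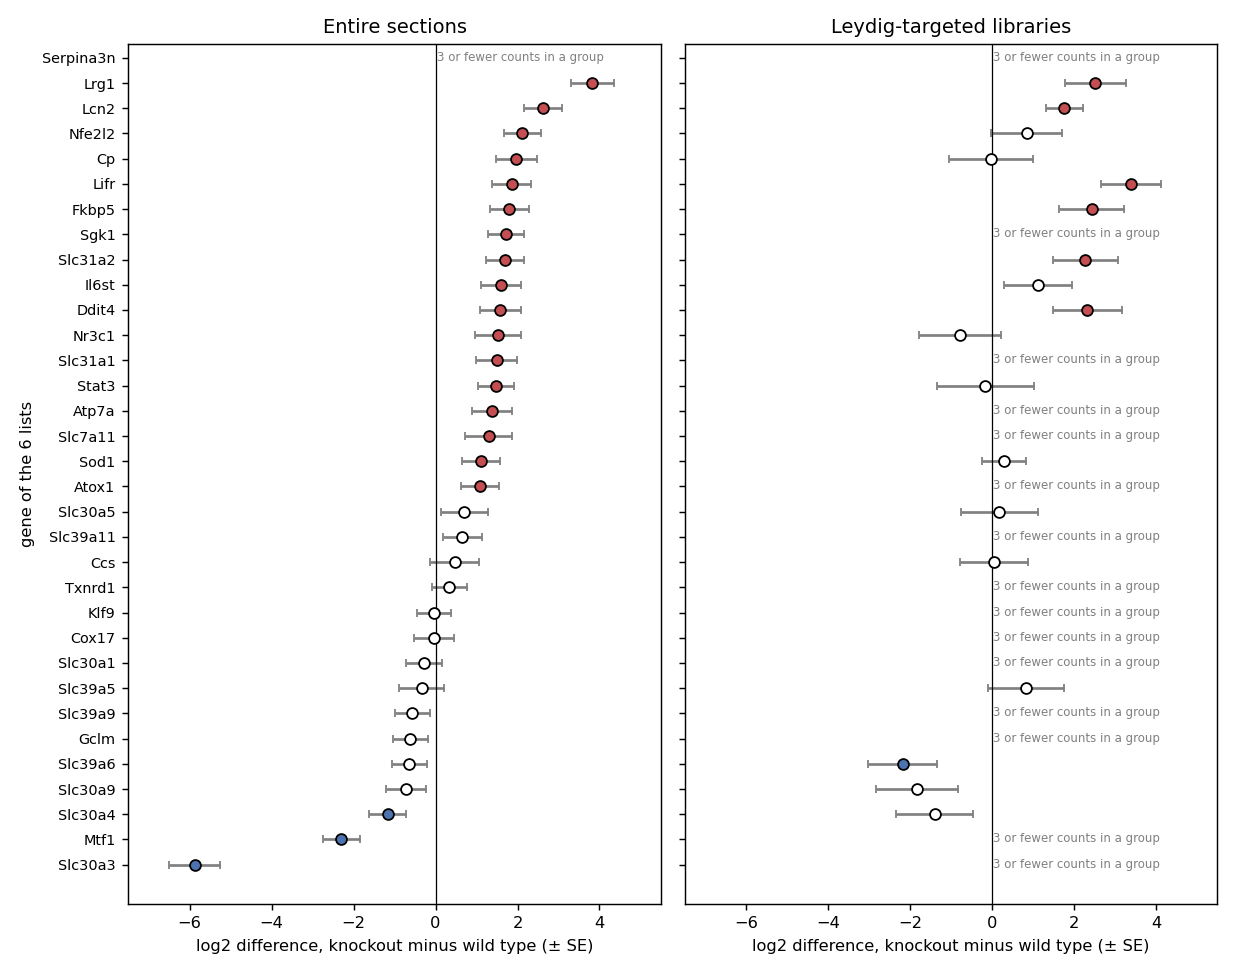
Fitted log2 difference, knockout minus wild type, with its SE for the 33 tested genes of the 6 lists, in entire sections (left) and Leydig-targeted libraries (right). Red points were called higher, blue points lower and white points were not called at an edgeR adjusted p of 0.05, and genes with 3 or fewer counts in a group have no point: 18 genes were higher and 3 lower in sections.

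Between lit areas few list genes differed. In wild type, Leydig-targeted libraries had 1 list gene higher and 1 lower than sections, where 3.22% of all tested genes were higher and 12.4% lower, and the list median was -0.13 against -0.67. Ccs, the copper chaperone of superoxide dismutase, rose by 2.24 ± 0.83 on the log2 scale (edgeR adjusted p = 0.045), and without a filter it was not called (1.51, adjusted p = 0.30), when 0 list genes were higher and 4 lower. Gclm, a subunit of the enzyme that starts glutathione synthesis, had 171 counts in sections and 1 at Leydig cells, a ratio 11.2-fold lower with a counting interval from 1.99 to 446. Neither was called without wild-type Leydig-targeted library 1, and 1 call was left without wild-type section 2 or 3, any of the knockout sections, or wild-type Leydig-targeted library 2. In knockout 1 was higher and 3 lower, against 1.91% and 3.53% of all tested genes, with medians of -0.33 and -0.42. Lifr rose by 1.41 ± 0.47 (adjusted p = 0.0496), a call lost without a filter (adjusted p = 0.49), with totals over filtered genes (0.11) and with 9 of the 12 libraries left out in turn (0.059 to 0.26), while it was kept without wild-type section 2, wild-type Leydig-targeted library 2 or knockout Leydig-targeted library 2. Stat3 fell by 2.48 (SE 0.72, adjusted p = 0.019), from 115, 82 and 77 counts in sections to 2, 2 and 1 at Leydig cells. Klf9, a glucocorticoid-induced transcription factor, had 154 counts in sections and 2 at Leydig cells, 6.98-fold lower with a counting interval from 1.90 to 58.2 (adjusted p = 0.029, and 0.067 by DESeq2), and Slc30a1 had 101 and 0, at least 3.05-fold lower. That count of 4 was 0 without knockout section 1, and 1 without knockout section 3 or knockout Leydig-targeted library 1 or 2. Ccs reached the filter's 66.13 CPM in Leydig-targeted libraries only, and Stat3 and Klf9 in sections only. The filter thus favoured the direction of these calls.

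The genes whose levels followed Mt1 most closely were found by Pearson's r of log2 CPM over the 12 libraries, among the 5182 tested genes, as a description. These libraries share groups and depth classes, which alone make values move together. Mt2 had an r of 0.80 and a Spearman rho of 0.91 with Mt1, above 96.3% of tested genes, and 27 genes had an r of at least 0.9. The closest was Kpnb1, a nuclear import receptor, with an r of 0.97, at 443, 258, 12.2 and 136 CPM in wild-type sections, knockout sections, wild-type and knockout Leydig-targeted libraries. Pmf1, a kinetochore protein, Eipr1, Fam122a, the splicing factor Sf1, Isyna1, Pikfyve and Psmd2 followed, with r from 0.96 down to 0.93. Isyna1, the enzyme that starts inositol synthesis, was the most abundant of these, at 2272, 3139, 370 and 1178 CPM with an r of 0.94. Pmf1 and Eipr1 had mean CPM of 0 in wild-type Leydig-targeted libraries, where Mt1 was also lowest. Most of the close patterns rest on few counts there. In libraries 1 to 3 of that group Kpnb1 had 2, 0 and 0 counts, and Fam122a, Pikfyve and Psmd2 had 1, 0 and 0 each. Sf1 had 3, 1 and 1, and Isyna1 had 21, 15 and 1. The most opposite patterns were those of Mc1r, the melanocortin receptor, with an r of -0.90, Ndufs5, a subunit of respiratory complex I, at -0.87, and Pgam1, an enzyme of glycolysis, at -0.86. Mc1r had 12.8, 17.6, 285 and 76.5 CPM in the same order of groups. These opposite patterns rest on few counts: in wild-type Leydig-targeted libraries 1 to 3, Mc1r had 7, 6 and 3 counts, Ndufs5 2, 4 and 1, and Pgam1 2, 3 and 1, and 1 count in library 3 is 168.2 CPM. All 3 genes passed the filter, at 66.13 CPM in 3 libraries, only through Leydig-targeted libraries, so a low level in sections was built into their selection. Of the genes most like Mt1, Pmf1, Eipr1 and Pikfyve reached that level in sections only, and Fam122a and Psmd2 also needed sections to pass. A lower level at Leydig cells, as Mt1 had, was thus favoured in their selection.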

How the data were processed

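The members and gene lists were chosen with earlier results of these data known. The deposited values are raw whole-number counts per gene, not normalized by the authors. HISAT2, featureCounts, UMI-tools and Trim Galore appear in the submitters' processing notes beside GRCm38, with neither versions nor settings. CPM uses the total of all 28595 genes in each library. Counts of all 12 libraries were fitted with 1 coefficient per group by the robust quasi-likelihood test of edgeR 4.0.16 (R 4.3.3), with TMM scaling and a filter at a minimum count of 10, which left 5182 genes. Mt1 and Mt2 were fitted with no test. Intervals are exact at 95%.

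Genes named are the members, the regulators Mtf1, Nr3c1, Nfe2l2 and Stat3, up to 4 called genes a list and comparison by p, with Sod1 and Il6st named after their values were seen, the 8 genes most like Mt1 and the 3 least like it, and neighbours within 250 kb, except for a result not reported here. Same-numbered section libraries deviated together from their group means (correlations 0.24, 0.13 and 0.19). Differently numbered ones were not compared, library totals fell with the number in both section groups, and no label pairs the sections. Whether the numbers mark real pairs was not tested, and they were used as a block in alternative fits only. Replicates of each group differed by more than sampling noise. Alternatives were library size alone, DESeq2 1.42.0 and its size factors, no filter, fits of 6 libraries with and without the replicate block, each library left out, and marker-scaled levels. Library totals over filtered genes only, means without library 3 and the longer promoter window were added after seeing the data.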

Additional observations from a re-analysis of the deposited data

How the results depend on the processing

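With library size alone, the Mt1 and Mt2 differences between sections were 0.0183 and -0.0048, the wild-type Mt1 difference between areas was -2.66, 4 list genes were called there and 1 for the interaction. Without a filter, these were -0.24 for Mt2 and 33 list calls in sections, 2.07 for Mt1 at Leydig cells, -4.05 for Mt1 and 4 list calls between areas in wild type, and -1.77 for Mt1 in knockout. With totals over filtered genes, chosen after seeing the data, they were -0.35 for Mt2 in sections, 0.9978 and -1.69 for Mt1 at Leydig cells and between areas in knockout, and 1 interaction call. DESeq2's test called 1. In fits of 6 libraries, Mt2 in sections was -0.25 and 32 list genes were called, Mt1 at Leydig cells was 1.13 with 2 calls, Mt1 between areas in wild type was -2.77 with 1 call, and 8 were called in knockout. With the replicate block these were -0.2491 and 34, 1.11 and 2, and -2.78 and 0. Without a filter and in fits of 6 libraries, other list genes entered the test, so those call counts are not compared with the main fit. The block changed no call of a named gene in sections, and Gclm, Stat3 and Klf9 lost theirs between areas. Outside sections same-numbered libraries did not deviate together (correlations from -0.11 to 0.056), so the block there is a number only.

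Per Leydig marker count the log2 ratios of means were -3.004 (Mt1) and -2.96 (Mt2) between sections, -0.24 and -1.43 between genotypes at Leydig cells, -4.58 and -3.04 between areas in wild type and -1.82 (Mt1) in knockout. Per Sertoli marker count they were -1.75 and -1.73 in sections, 0.45 (Mt1) at Leydig cells, -1.99 (Mt1) between areas in wild type, and 0.21 and 0.72 in knockout. The cause was not tested.

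With each library left out in turn, Mt1 ran from -0.73 to -0.20 and Mt2 from -0.61 to -0.21 in sections, with 17 to 21 list calls. At Leydig cells Mt1 ran from 1.04 to 1.62 and Mt2 from -1.09 to 0.23, with 3 to 15 calls. Between areas, Mt1 ran from -3.35 to -2.91 and Mt2 from -1.69 to -1.01 in wild type, with 0 to 2 calls, and Mt1 from -1.65 to -1.12 and Mt2 from -1.96 to -0.77 in knockout, with 0 to 5 calls, and the interaction had 0 to 1. A left-out library leaves a group of 2.

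Regulators with few counts changed direction without being called. Stat3 at Leydig cells was 0.0538 with library size alone, 0.44 without a filter and -0.63 to 0.39 with single libraries left out, and Nfe2l2 there was -0.47 to 7.76. Between areas in wild type, Nfe2l2 was -0.31 without a filter and -6.50 to 1.78 with libraries left out, and Mtf1 was 0.0245 with library size alone and -1.67 to 0.0199. Nr3c1 between areas in knockout was -1.90 to 0.10. Depth limits the Leydig-targeted groups, where Mt2 rests on 29 and 32 counts.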

Other observations

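Bbs2 and Herpud1 were among the genes within 250 kb of the cluster on chromosome 8 that passed the filter. Bbs2, a ciliary gene, was lower in knockout than in wild-type sections by -1.75 ± 0.44 on the log2 scale (SE, edgeR adjusted p = 0.00022), with mean levels of 236 and 102 CPM. Bbs2 was also lower in wild-type Leydig-targeted libraries than in sections, at 30.6 CPM and a log2 difference of -2.91 ± 0.78 (adjusted p = 0.0042). Herpud1, a gene of the endoplasmic reticulum stress response, was lower in knockout sections by -1.22 ± 0.43 (adjusted p = 0.0092). At Leydig cells, where Mt1 was higher in knockout, Bbs2 and Herpud1 had genotype differences of 0.32 ± 1.12 and -1.32 ± 0.90 and neither was called.

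Genes with counts below the filter included Gnao1, Nudt21, Ogfod1, Gm45873, Gm45774, Gm39228, Nup93, C78859, Slc12a3, Gm15890 and 9330175E14Rik. Nup93, a nuclear pore protein with 104 counts in all, had 0 counts in both Leydig-targeted groups. Gm45774, the antisense neighbour of Mt2, was counted in sections only, at 3.92 CPM in wild type and 1.04 CPM in knockout.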
